A study of Mus musculus with 6 samples.

Results

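Of the 16158 genes with a column in the deposited tables, 5 are described here: the nonclassical MHC class I genes H2-T23 and H2-Q7, and the lectin-like receptor genes Klrc1, Klrd1 and Klrk1. They were chosen by name as ligand genes to be followed in tissue cells and receptor genes to be followed in lymphocytes. H2-T23 encodes Qa-1, which presents peptides from the leader sequences of other class I chains, and H2-Q7 encodes a Qa-2 chain, most of which is tethered to the membrane by a lipid anchor. Klrc1 encodes NKG2A, the inhibitory chain that pairs with CD94, the product of Klrd1, and the pair binds Qa-1. Klrk1 encodes NKG2D, an activating receptor for stress-induced class I-like proteins that signals through the adaptors encoded by Hcst and Tyrobp. On natural killer cells and on activated CD8 T cells these receptors are known to set how readily a cell kills a target.

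Skin of 6 mice of the NINJA strain, 6 to 12 weeks old, was profiled by single-cell RNA sequencing with a 10x Genomics 5′ kit, and all 6 had the sequenced skin area treated with 4-OH-Tam. Group NO_AG holds 2 mice with the antigen off, group AG 2 mice with the antigen on, and group AG_CPI 2 mice with the antigen on and CPI given, an abbreviation that the labels do not spell out. The promoter that drives the antigen, the sex of the mice and any batch are not given in the sources used here. Per the labels' protocols, P14 cells, CD8 T cells with a transgenic antigen receptor, were recovered from every mouse and the skin was scored for disease before sequencing.

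The libraries held 1736 to 4972 cells with a median of 2416.5 to 4574 UMIs (counted transcript molecules), and 20464 of 21178 cells were kept. Cells were grouped into 12 classes from marker genes, and the suffix -like marks a class named from clusters. The CD8 T class took cells from alpha-beta T-like clusters if they held a Cd8a or Cd8b1 UMI and lacked Cd4. A level is the mean, over 1 mouse's cells of a class, of a gene's UMIs per 10000 UMIs. The mouse is the replicate throughout, and a mouse needed 10 cells of a class. Differences are on the log2(level + 0.1) scale, from a limma-trend fit over all genes that passed a filter on low values, and a gene was called at a Benjamini-Hochberg adjusted p under 0.05. An exact permutation of 2 against 2 mice cannot go below p = 0.333, so each call rests on the spread that limma shares across genes. Library AG_CPI 1 stood apart from the rest: outside the T cells it held 92 UMIs of the Y-linked gene Ddx3y and a Xist UMI in 2.17% of 506 cells, against 0 Ddx3y UMIs and 67.0% to 85.9% of cells in the other libraries. The main fitted differences of AG_CPI are given with and without it, while tests of a difference between classes were fitted with all mice.

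In the GENCODE M21 annotation of GRCm38 the ligand genes lie on chromosome 17, H2-Q7 at 35439155 to 35443773 on the forward strand and H2-T23 at 36029773 to 36032855 on the reverse strand. The receptor genes share the natural killer gene complex of chromosome 6 within 87.2 kb: Klrd1 at 129591782 to 129598775 on the forward strand, Klrk1 at 129610323 to 129623864 and Klrc1 at 129666015 to 129678973, both on the reverse strand. Reads cannot always be placed between near-identical genes. Of the 50-base stretches of its coding transcripts, H2-Q7 shared 34.9% with another gene (most with H2-Q5, H2-Q6 and H2-D1), Klrc1 38.6% (Klrc2 and Klrc3) and H2-T23 28.8%, while Klrd1 and Klrk1 shared 0%. Over the first 500 bases of the transcripts, nearest to where a 5′ kit reads, the shares were 39.0% for H2-Q7, 12.6% for Klrc1 and 14.6% for H2-T23. The levels of these 3 genes are uncertain for that reason. H2-T23 also overlaps the gene A930015D03Rik on the opposite strand.

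Sequence upstream of the start site is shown for H2-Q7, Klrc1 and Klrk1, which were called in at least 1 comparison. Bases are from the RefSeq promoter table of GRCm38.p6, written along the strand of the gene and numbered backward from the start, and 4 of the 5 members are in that table. The first set compares a 30-base stretch of H2-Q7 with the same stretch of H2-Q6 and H2-K1, 2 of the 3 genes whose levels were most like those of H2-Q7. Capitals mark a kappa B motif (GGGATTCCC) and an interferon-stimulated response element (GTTTC, any 2 bases, then TTC), searched on both strands. They begin 132 and 114 bases before the start of H2-Q7.
H2-Q7 (chr17:35439022-35439051, forward strand): gGGGATTCCCatctccccaGTTTCACTTCt
H2-Q6 (chr17:35424677-35424706, forward strand): gGGGATTCCCcatctccccaGTTTCACTTC
H2-K1 (chr17:34000429-34000458, reverse strand): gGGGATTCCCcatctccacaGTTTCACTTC
Of 32851 promoters in the table, 0.301% held the kappa B letters and 1.45% the response element.
The 250 bases before the starts of H2-Q7, Klrc1 and Klrk1 follow. In H2-Q7 the capitals add 2 CCAAT boxes, the first on the reverse strand (ATTGG), a motif that 33.8% of promoters hold. In the receptor genes they mark a RUNX motif (TGTGGT, or ACCACA on the reverse strand), present in 14% of promoters, and in Klrk1 also a CCAAT box 35 to 31 bases before the start. A T-box motif (AGGTGTGA, in 1.12% of promoters) was found in none of these windows.
H2-Q7 (chr17:35438905-35439154, forward strand): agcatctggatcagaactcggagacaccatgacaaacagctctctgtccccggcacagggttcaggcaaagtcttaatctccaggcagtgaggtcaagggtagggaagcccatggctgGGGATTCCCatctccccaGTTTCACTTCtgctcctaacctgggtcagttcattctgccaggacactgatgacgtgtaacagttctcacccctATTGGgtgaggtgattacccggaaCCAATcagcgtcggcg
Klrc1 (chr6:129678974-129679223, reverse strand): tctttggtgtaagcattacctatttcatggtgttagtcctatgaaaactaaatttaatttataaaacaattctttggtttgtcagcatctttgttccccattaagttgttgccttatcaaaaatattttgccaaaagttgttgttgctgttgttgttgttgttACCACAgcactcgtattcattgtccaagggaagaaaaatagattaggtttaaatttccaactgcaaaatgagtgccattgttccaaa
Klrk1 (chr6:129623865-129624114, reverse strand): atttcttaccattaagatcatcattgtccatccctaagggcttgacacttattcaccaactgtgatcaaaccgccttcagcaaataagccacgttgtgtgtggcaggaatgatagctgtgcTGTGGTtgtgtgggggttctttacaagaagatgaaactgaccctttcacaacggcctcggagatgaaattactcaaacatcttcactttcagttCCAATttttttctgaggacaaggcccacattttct

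H2-Q7 was higher with antigen in tissue-resident cells that had little of it without antigen. Fibroblast-like cells rose from a mean of 0.15 to 2.23 and dendritic/Langerhans-like cells from 0.111 to 2.09, whereas CD8 T cells were at 7.52 and 7.58. The level in keratinocyte-like cells, the most numerous class, went from 2.00 to 4.16, again without passing the test. These values describe RNA in separate mice and not protein on the cell surface.

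**Figure D1:**
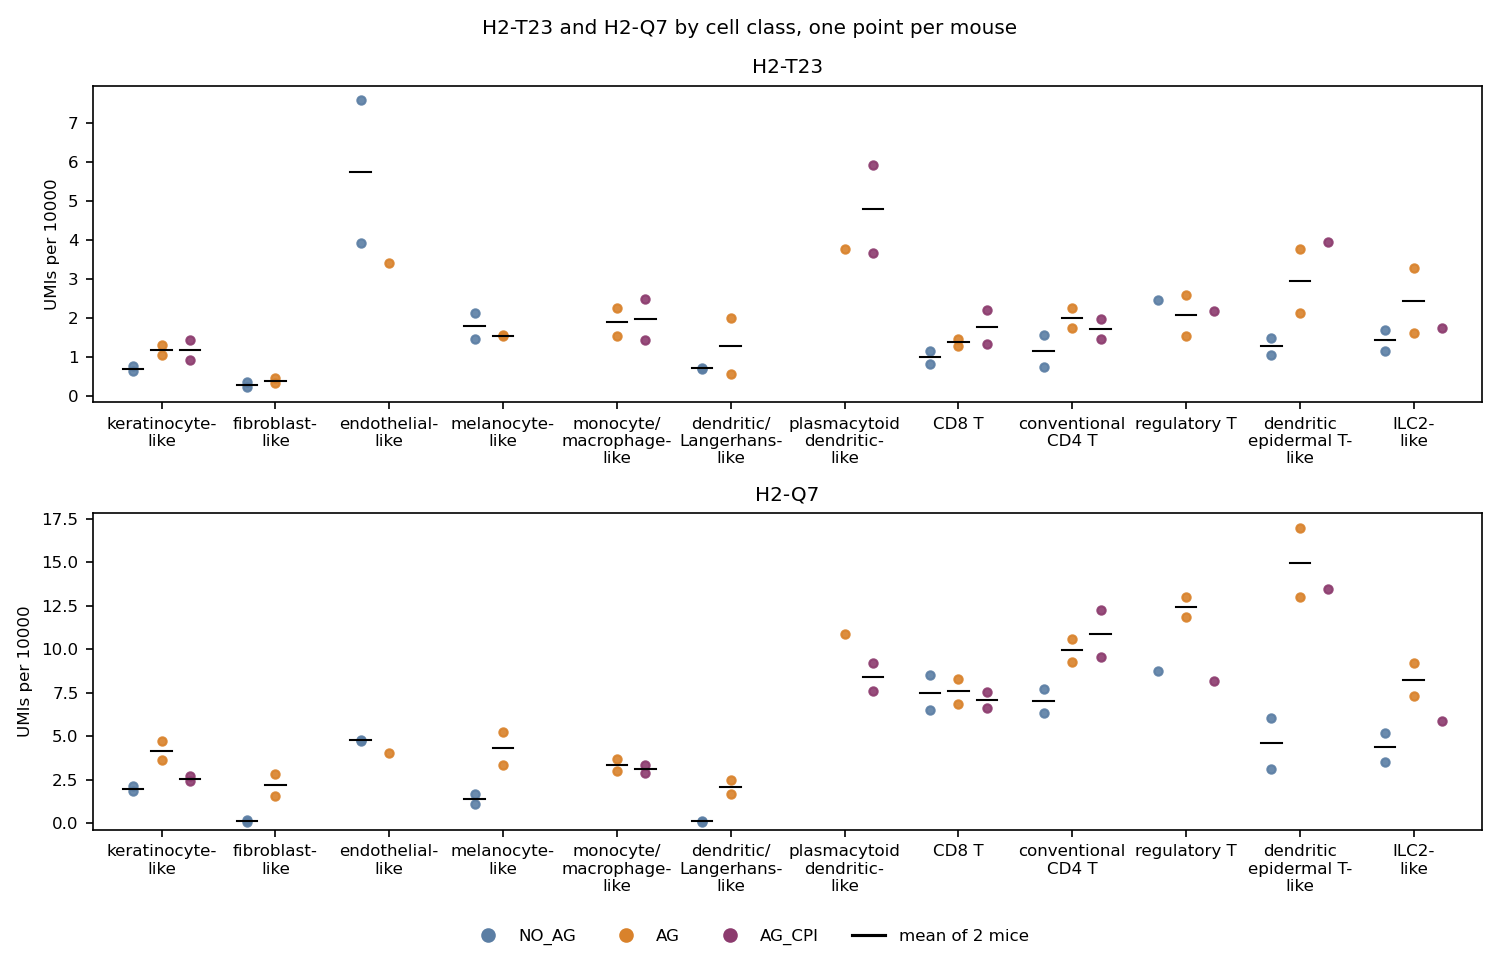
Levels of H2-T23 (top) and H2-Q7 (bottom) in UMIs per 10000 by cell class, with 1 point per mouse that had at least 10 cells of the class and a line at the mean of the 2 mice of a group. H2-Q7 points of the AG mice lie above those of the NO_AG mice in fibroblast-like, dendritic/Langerhans-like and keratinocyte-like cells and are mixed in CD8 T cells.

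In fibroblast-like cells H2-Q7 stood at 0.194 and 0.107 in NO_AG mice 1 and 2 (8 and 3 UMIs over 86 and 62 cells) and at 1.59 and 2.86 in AG mice 1 and 2 (47 and 29 UMIs over 55 and 27 cells). Both AG mice lay above both NO_AG mice, as for 15.9% of genes. The log2 difference was 3.19 (SE 0.41, 95% interval 2.27 to 4.10, limma adjusted p = 0.0295), one of 9 calls among the 4563 genes tested, a share called of 0.197%. A UMI of H2-Q7 was found in 6.98% and 4.84% of cells without antigen (Wilson 95% intervals 3.24% to 14.4% and 1.66% to 13.3%) and in 41.8% and 55.6% with it (29.7% to 55.0% and 37.3% to 72.4%). Intervals on shares cover counting error only. With every cell thinned to 1300 UMIs the difference was larger, 4.06, and was no longer called (adjusted p = 0.402). The summed level of 15 alpha-beta T markers in these cells was 0.522 and 0.102 in NO_AG and 0.174 and 0.270 in AG, with 8 to 13 of the 15 at 0, and the groups overlapped. Summed monocyte/macrophage markers moved with the group, at 13.4 and 12.6 in NO_AG and 15.8 and 19.5 in AG, with 9 to 11 of 14 at 0, and their part in the result was not tested. The AG_CPI mice had 8 and 7 fibroblast-like cells and were not tested.

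Dendritic/Langerhans-like cells, a single cluster led by the Langerhans cell gene Cd207, had H2-Q7 at 0.0894 and 0.132 in NO_AG (10 and 12 UMIs over 193 and 125 cells) and at 1.66 and 2.51 in AG (47 and 57 UMIs over 34 cells each). The groups did not overlap (17.7% of genes had both AG mice on top), and H2-Q7 rose by 3.42 on the log2 scale (SE 0.32, 2.67 to 4.16, limma adjusted p = 0.0099), in a class where 1.73% of 5731 genes were called. With H2-Q7, 3.11% and 6.4% of cells were positive in NO_AG (Wilson 1.43% to 6.62% and 3.28% to 12.1%) and 58.8% and 70.6% in AG (42.2% to 73.6% and 53.8% to 83.2%). Median depth moved with the group, at 3899 and 5255 UMIs in NO_AG and 8720 and 7773 in AG. At 1300 UMIs per cell the shares were 1.55% and 3.20% against 23.5% and 26.5%, and the difference was 2.89 (adjusted p = 0.145). The summed alpha-beta T markers also moved, from 0.438 and 0.283 to 2.44 and 2.79, and their part in the result was not tested. The call was lost as well with no filter on low values (adjusted p = 0.0599). Neither AG_CPI mouse had a cell of this class.

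Keratinocyte-like cells had H2-Q7 at 1.87 and 2.13 in NO_AG, 4.71 and 3.62 in the AG mice, and 2.71 and 2.42 in AG_CPI. The 3 groups did not overlap, with AG_CPI between the others. The log2 difference of AG from NO_AG was 1.09 (SE 0.19, 0.64 to 1.54, adjusted p = 0.126, in a class with 0.337% of 8305 genes called), and that of AG_CPI from AG was -0.70 (SE 0.19, adjusted p = 0.608). Both AG mice lay above both NO_AG mice for 15% of all genes here, and both AG_CPI mice below both AG mice for 16.5%. In this class mice with the same replicate number deviated together (correlations of 0.189 to 0.215), and with the number as a block H2-Q7 was called (1.09, adjusted p = 0.047). It was also called over the 4 clusters that had 10 or more cells in every mouse (1.16, adjusted p = 0.00956), where levels were 1.83 and 2.09 in NO_AG, 4.38 and 4.05 in the AG mice, and 2.70 and 3.26 in AG_CPI.

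The share of keratinocyte-like cells with an H2-Q7 UMI was 48.7% and 51.1% in NO_AG, 79.9% and 60.4% in the AG mice, and 59.2% and 47.6% in AG_CPI. Median depths differed, with 6878 UMIs in AG mouse 1 and 2397 in AG mouse 2. Thinned to 1300 UMIs the shares were 19.3% and 22.3%, 40.5% and 39.6%, and 28.3% and 28.9%, so the AG mice came together and the AG_CPI mice lay between the groups. Without library AG_CPI 1 the H2-Q7 difference of AG_CPI from AG was -0.82 (adjusted p = 0.398). Summed dendritic/Langerhans markers in these cells moved with antigen, at 2.74 and 6.11 in NO_AG, 8.42 and 27.0 in the AG mice, and 12.5 and 10.5 in AG_CPI, with 0 to 7 of 13 at 0. Alpha-beta T markers were 0.522 and 1.36, 1.28 and 5.39, and 2.15 and 4.65, with 0 or 1 of 15 at 0, and monocyte/macrophage markers 59.0 and 46.7, 55.1 and 36.5, and 33.4 and 30.3, with 0 to 3 of 14 at 0. The part of any of these in the result was not tested.

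Among lymphocytes, dendritic epidermal T-like cells, the gamma-delta T cells that reside in mouse epidermis, had H2-Q7 at 3.12 and 6.06 in NO_AG and at 13 and 17 in AG. Both AG mice exceeded both NO_AG mice, as for 12.3% of genes. The log2 difference of 1.86 (SE 0.32, 1.09 to 2.62) did not pass the test (adjusted p = 0.452), and 0 of 7187 genes were called by limma in this class, with 599 at an unadjusted p under 0.05. It was 2.07, 1.65 and 2.33 when AG 1, AG 2 or NO_AG 2 was left out, each leaving 1 mouse in its group. AG_CPI mouse 2 had 13.5 over 17 cells. Summed keratinocyte markers in these cells were 8.02 and 8.10 in NO_AG and 11.1 and 12.3 in AG (0 to 4 of 21 at 0), and their part was not tested. ILC2-like cells stood at 3.55 and 5.20 in NO_AG and 7.30 and 9.23 in AG (0.90, adjusted p = 0.933, and 0.99 without AG 1). Conventional CD4 T cells stood at 7.70 and 6.36, 10.6 and 9.29, and 12.2 and 9.54 in the 3 groups (0.56 for AG against NO_AG, adjusted p = 0.686, with 0% of 3257 genes called, and 0.50 for AG_CPI against NO_AG, adjusted p = 0.366, with 0.43% called, and 0.41 without AG_CPI 1). In both classes the AG mice lay above the NO_AG mice, as 16.1% and 25.3% of genes did.

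CD8 T cells overlapped for H2-Q7: 6.53 and 8.50 in NO_AG, 8.28 and 6.89 in the AG mice, and 7.53 and 6.64 in AG_CPI. The interval for AG against NO_AG ran from -0.23 to 0.49 around 0.13, and that for AG_CPI against NO_AG from -0.36 to 0.36 around 0.00 (-0.09 without AG_CPI 1). The class difference itself was tested within mice. Keratinocyte-like cells exceeded CD8 T cells in the AG difference by 0.96 (SE 0.23, adjusted p = 0.179, with 0.189% of 6335 genes called) and fell short of fibroblast-like cells by 2.10 (log2 -2.10, SE 0.50, adjusted p = 0.656), so neither passed.

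The H2-Q7 order is given for classes with 2 mice in a group. Without antigen it ran from CD8 T cells (7.52) and conventional CD4 T cells (7.03), whose mice overlapped, to endothelial-like (4.77), dendritic epidermal T-like (4.59) and ILC2-like cells (4.38), which overlapped. Keratinocyte-like (2.00), melanocyte-like (1.40), fibroblast-like (0.15) and dendritic/Langerhans-like cells (0.111) followed, the last pair overlapping. Regulatory T cells, with enough cells in 1 NO_AG mouse, stood at 8.74, above the CD8 T mean. With antigen the order was led by dendritic epidermal T-like cells (15), regulatory T cells (12.4) and conventional CD4 T cells (9.95). ILC2-like and CD8 T cells followed (8.26 and 7.58, overlapping), then melanocyte-like (4.31), keratinocyte-like (4.16) and monocyte/macrophage-like cells (3.36), whose mice overlapped. Fibroblast-like (2.23) and dendritic/Langerhans-like cells (2.09) were last, and overlapped. Plasmacytoid dendritic-like and endothelial-like cells, with enough cells in AG mouse 2 alone, stood at 10.9 and 4.025. In melanocyte-like cells, which fell in different clusters by group, H2-Q7 was 1.67 and 1.13 in NO_AG and 5.25 and 3.37 in AG. The difference was 1.61 (adjusted p = 0.959), with 1.37 without AG 1 and 1.86 without AG 2. Monocyte/macrophage-like cells, at 6 and 3 cells in NO_AG and 155 or more in every antigen mouse, stood at 3.02 and 3.7 in AG and 2.9 and 3.36 in AG_CPI (-0.09, adjusted p = 0.967, with 0.849% of 6596 genes called, and 0.0150 without AG_CPI 1).

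With all mice, H2-T23 was called in no class. Its level in keratinocyte-like cells was 0.638 and 0.764 in NO_AG, 1.05 and 1.31 in the AG mice, and 1.42 and 0.929 in AG_CPI. All 4 antigen mice lay above both NO_AG mice; 15% of genes did so for AG and 20.2% for AG_CPI. The log2 difference was 0.74 for AG against NO_AG (SE 0.24, 0.18 to 1.31, adjusted p = 0.547) and 0.70 for AG_CPI against NO_AG (adjusted p = 0.304, with 0.108% of genes called, and 0.37 without AG_CPI 1).

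In CD8 T cells H2-T23 was 0.827 and 1.16 in NO_AG, 1.28 and 1.46 in the AG mice, and 2.21 and 1.34 in AG_CPI. AG_CPI mouse 1, of the library that stood apart, was the highest. The difference of AG_CPI from NO_AG was 0.82 (SE 0.23, adjusted p = 0.0724) and was 0.48 without that library. It was called with that library as the only AG_CPI mouse (1.18, adjusted p = 0.0285). Dendritic epidermal T-like cells had 1.06 and 1.49 in NO_AG and 2.12 and 3.76 in AG (1.21, SE 0.32, adjusted p = 0.495). The difference was 1.64 without AG 1 and 0.79 without AG 2. The H2-T23 values of ILC2-like cells were 1.16 and 1.70 against 1.61 and 3.28, and overlapped (0.66, and 1.08 without AG 1).

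H2-T23 was highest in endothelial-like cells without antigen, at 3.92 and 7.59 (mean 5.75), above every other class with no overlap. Fibroblast-like cells were the lowest, at 0.357 and 0.218 in NO_AG and 0.324 and 0.457 in AG, too few UMIs to enter the test. Where H2-Q7 was called, in fibroblast-like and dendritic/Langerhans-like cells, H2-T23 was therefore not tested in the first and not called in the second (0.702 and 0.728 against 0.568 and 1.99, difference 0.61, adjusted p = 0.571, with 1.47 without AG 1 and -0.25 without AG 2). Melanocyte-like cells stood at 2.12 and 1.46 against 1.57 and 1.53. Plasmacytoid dendritic-like cells, seen only in antigen mice, had 3.77 in AG mouse 2 and 5.94 and 3.66 in AG_CPI, the highest class mean of that group (4.80).

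A list of 17 genes that build and load class I molecules, chosen with earlier results known, was followed beside the ligands. In fibroblast-like cells 3 of 14 tested were called higher and 0 lower (background share higher 0.175%), with a list median of 0.95 against -0.04 for all genes. H2-K1, a classical heavy chain, went from 3.04 and 3.15 to 13.7 and 27.2 (2.61, adjusted p = 0.0163), and H2-D1 (1.97) and B2m, the shared light chain (1.63), had an adjusted p of 0.034 each. In dendritic/Langerhans-like cells 6 of 14 were called higher and 0 lower (background 1.05%), the 3 with the smallest p being H2-K1 (1.62, adjusted p = 0.0102), H2-D1 (1.22) and the peptide transporter gene Tap1 (2.02), both at an adjusted p of 0.0114. In keratinocyte-like cells 17 of 17 lay on the higher side with a median of 0.79 against -0.0044 for all genes, and 1 was called, the immunoproteasome gene Psmb9 (1.39, adjusted p = 0.0355, background 0.325%). For AG_CPI against AG in these cells 1 of 17 lay on the higher side, the median was -0.40 against -0.03 for all genes (-0.63 against -0.02 without AG_CPI 1), and limma called 0 of all 8305 genes, with 632 at an unadjusted p under 0.05. In CD8 T cells 15 of 17 lay on the higher side for AG against NO_AG, with a median of 0.29 against 0.02 for all genes, and none was called.

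Of 20 other nonclassical heavy chain genes, 13 had a column. H2-Q6, the neighbour of H2-Q7 with which it shares sequence, was called higher in fibroblast-like (3.31, adjusted p = 0.034) and dendritic/Langerhans-like cells (2.21, adjusted p = 0.0374), 1 of 5 and 1 of 6 tested. H2-M5 fell in the dendritic/Langerhans-like cells (-1.94, adjusted p = 0.0105, with 0.681% of genes called lower). None of 5 was called in keratinocyte-like cells. Of 9 genes for NKG2D ligands, 3 had a column. Raet1d, Raet1e and Ulbp1 held 0 UMIs in fibroblast-like and melanocyte-like cells, and the highest mouse mean in keratinocyte-like cells was 0.0188 for Ulbp1. Monocyte/macrophage-like cells had Raet1d at 0.0841 and 0.0607 in AG and 0.0994 and 0.0688 in AG_CPI. Endothelial-like cells had Raet1e at 0.446 in NO_AG mouse 2, from 2 UMIs in 12 cells, and 0 in the 37 cells of NO_AG mouse 1. Ulbp1 was found in lymphocytes as well. In dendritic epidermal T-like cells it was 0.223 and 0.146 in NO_AG (34 and 19 UMIs, in 5.89% and 5.19% of cells) and 0.0682 and 0.0597 in AG (4 and 2 UMIs), with no overlap. That difference of -0.74 did not pass (SE 0.28, adjusted p = 0.574), and 30.8% of genes in this class had both AG mice below both NO_AG mice. In CD8 T cells Ulbp1 ran from 0.0790 to 0.129 over the 6 mice and was not called in any comparison.

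On the receptor side, Klrc1 and Klrd1 were several-fold higher in CD8 T cells of the antigen mice. The means of all 3 receptors were highest with CPI, though no step from AG to AG_CPI passed the test. Klrc1 went from a mean of 0.381 in NO_AG to 3.84 in AG and 4.67 in AG_CPI, Klrd1 from 2.79 to 10.4 and 14.1, and Klrk1 from 1.74 to 2.60 and 4.83. In dendritic epidermal T-like cells, which carry Klrd1 and Klrk1 without antigen, none of the 3 passed the test.

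**Figure D2:**
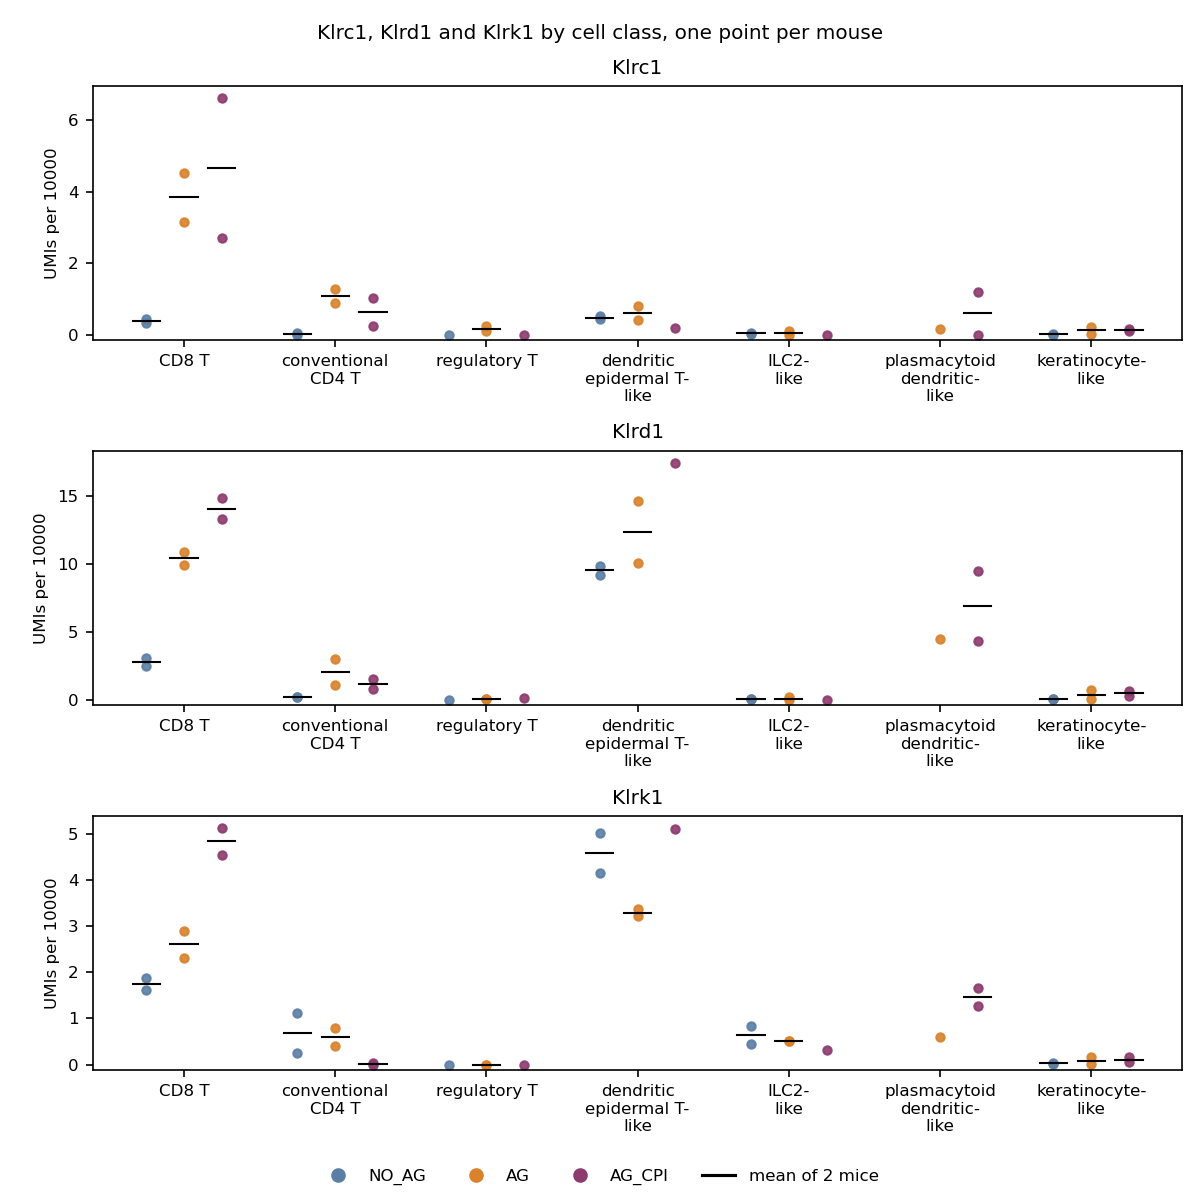
Levels of Klrc1, Klrd1 and Klrk1 in UMIs per 10000 by cell class, with 1 point per mouse with at least 10 cells and a line at the mean of the 2 mice of a group. In CD8 T cells the NO_AG mice sit at 0.337 and 0.426 for Klrc1 and all antigen mice at 2.71 or above, while dendritic epidermal T-like cells carry Klrd1 and Klrk1 in every group.

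Klrc1 in CD8 T cells stood at 0.337 and 0.426 in NO_AG (12 and 62 UMIs over 127 and 385 cells), 4.53 and 3.14 in the AG mice, and 6.62 and 2.71 in AG_CPI (913 to 1945 UMIs per antigen mouse). Every antigen mouse was above both NO_AG mice, and the AG_CPI mice lay on either side of the AG mice. The log2 difference of AG from NO_AG was 3.11 (SE 0.32, 2.41 to 3.81, limma adjusted p = 0.000137), among 3.06% of 7211 genes called. AG_CPI exceeded NO_AG by 3.24 (adjusted p = 9.07e-05, 3.97% of genes called), and by 2.61 without AG_CPI 1 (adjusted p = 4.96e-05). AG_CPI against AG gave 0.13 (-0.57 to 0.83, adjusted p = 0.998, 0.111% of genes called), and -0.50 without AG_CPI 1. With no filter on low values the AG difference was not called (adjusted p = 0.0575).

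A Klrc1 UMI was present in 7.87% and 9.61% of CD8 T cells in NO_AG (Wilson 95% intervals 4.33% to 13.9% and 7.05% to 13.0%), 51.9% and 52.2% in AG (48.8% to 55.0% and 48.6% to 55.7%), and 72.3% and 50.9% in AG_CPI (69.6% to 74.8% and 48.1% to 53.7%). Median depth of CD8 T cells was 2310 and 2590, 2858 and 2918, and 2280.5 and 2693 UMIs. Keratinocyte-like cells, which should lack Klrc1, had a UMI in 0.109% and 0.525%, 0.845% and 4.75%, and 3.66% and 4.20% of cells at median depths of 2397 to 6878. CD8 T cells were above that background in every mouse. Thinned to 1300 UMIs, the CD8 T shares were 4.72% and 4.42%, 35.9% and 30.3%, and 54.6% and 30.3%.

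Klrd1 in CD8 T cells was 2.48 and 3.1 in NO_AG, 9.90 and 10.9 in the AG mice, and 14.8 and 13.3 in AG_CPI. The 3 groups did not overlap, in the order NO_AG, AG, AG_CPI. AG exceeded NO_AG by 1.97 on the log2 scale (SE 0.15, 1.65 to 2.30, limma adjusted p = 1.06e-05), and AG_CPI exceeded NO_AG by 2.37 (adjusted p = 2.20e-06, and 2.30 without AG_CPI 1). The step from AG to AG_CPI was 0.40 (0.07 to 0.73, adjusted p = 0.722, and 0.32 without AG_CPI 1), where 22.1% of all genes had both AG_CPI mice above both AG mice. Klrd1 was detected in 36.2% and 41.6% of CD8 T cells in NO_AG (Wilson 28.4% to 44.9% and 36.7% to 46.5%), 73.1% and 77.4% in the AG mice, and 87.2% and 88.3% in AG_CPI. Among keratinocyte-like cells the share ran from 0.907% to 14.4%.

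Klrk1 in CD8 T cells was 1.61 and 1.88 in NO_AG, 2.90 and 2.30 in the AG mice, and 4.53 and 5.12 in AG_CPI. Here too the groups did not overlap. AG_CPI exceeded NO_AG by 1.49 (SE 0.17, 1.13 to 1.86, limma adjusted p = 0.000238), and by 1.58 without AG_CPI 1 (adjusted p = 0.00187). The step from NO_AG to AG was 0.65 (SE 0.17, 0.29 to 1.02) and that from AG to AG_CPI 0.84 (0.48 to 1.21, and 0.92 without AG_CPI 1), and neither passed (adjusted p = 0.0612 and 0.103). The first was called without AG mouse 2 (0.81, adjusted p = 0.0454) and the second without AG mouse 1 (1.00, adjusted p = 0.026). Klrk1 was detected in 28.3% and 30.4%, 47.8% and 41.7%, and 61.5% and 69.1% of CD8 T cells (Wilson 21.2% to 36.7%, 26.0% to 35.2%, 44.7% to 50.9%, 38.3% to 45.3%, 58.7% to 64.3% and 66.4% to 71.6%), against 0.617% to 4.76% of keratinocyte-like cells. Of the 5 members, AG against NO_AG called 2 in CD8 T cells, both higher (2.2% of all genes), AG_CPI against AG called none, and AG_CPI against NO_AG called 3, all higher (2.58%); the comparisons share mice. Both mice of the first group lay above both of the second for 16.5%, 22.1% and 20.6% of all genes in the same order.

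**Figure D3:**
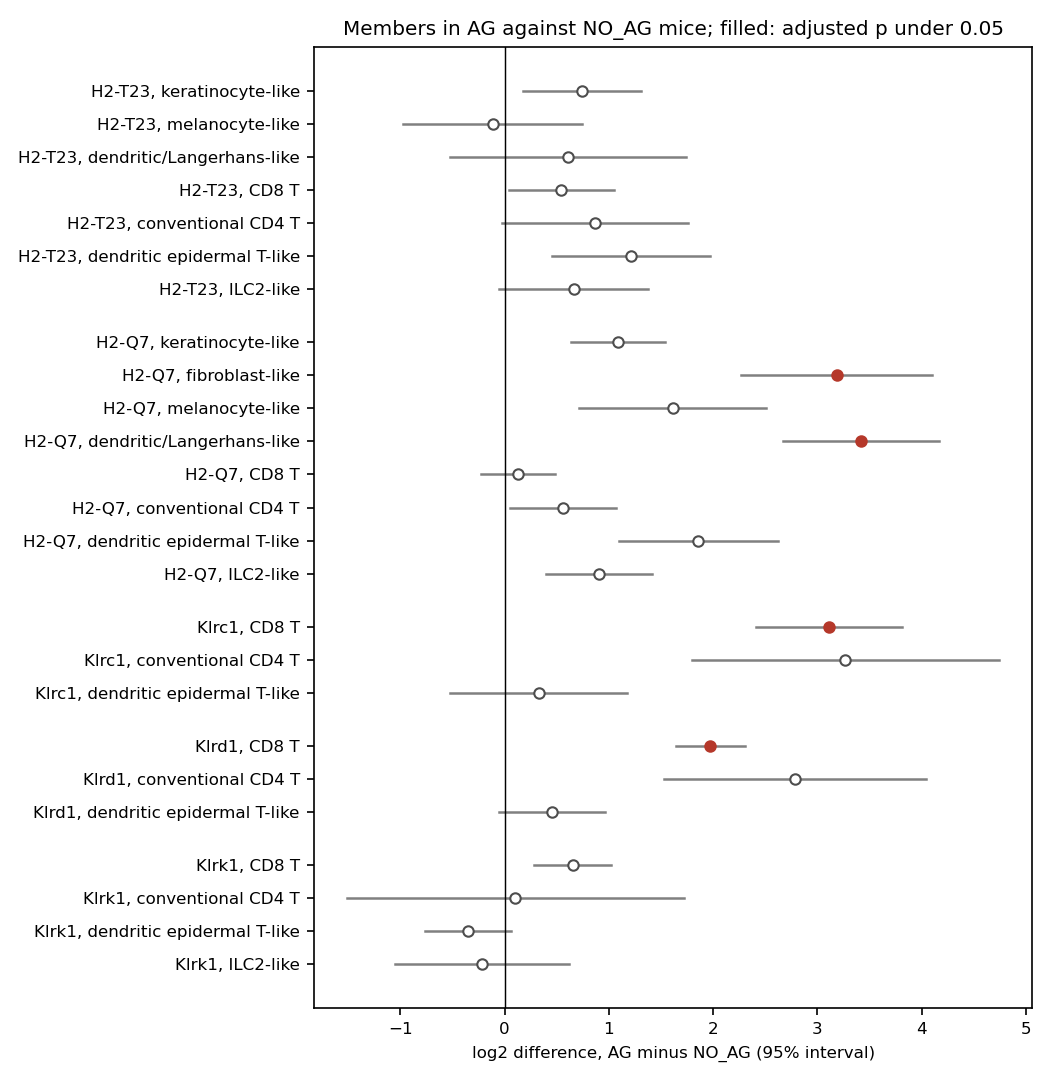
Log2 differences of AG from NO_AG with 95% intervals from limma, by gene and cell class, with filled points at an adjusted p under 0.05. The filled points are H2-Q7 in fibroblast-like (3.19) and dendritic/Langerhans-like cells (3.42) and Klrc1 (3.11) and Klrd1 (1.97) in CD8 T cells.

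CD8 T cells of the groups came largely from different clusters. Cluster 1 held 78.7% and 79.5% of them in NO_AG, 40.4% and 15.5% in the AG mice, and 3.31% and 4.12% in AG_CPI, while cluster 0, led by Gzma and Ccl1, held 0% and 3.64%, 29.7% and 18.2%, and 69.1% and 71.2%. Cluster 1 had 2 natural killer list genes and 1 T cell marker among its top 10, a Cd3e UMI in 86.1% of cells, and a narrow lead for its name. Within cluster 1, Klrc1 was 0.320 and 0.354 in NO_AG and 1.10 and 1.22 in AG, with a difference of 1.59 that was not called (adjusted p = 0.9999). Klrd1 there differed by 0.56 (adjusted p = 0.9999) and Klrk1 by -0.26. Outside cluster 1, Klrc1 was 0.399 and 0.703 in NO_AG (4 and 28 UMIs over 27 and 79 cells) and 6.86 and 3.49 in AG (3.18, adjusted p = 0.0218). The differences of Klrd1 and Klrk1 there were 2.83 (adjusted p = 0.00019) and 1.10 (adjusted p = 0.0496). Those NO_AG cells were mostly of cluster 9 (21 and 61 cells) and the AG cells mostly of clusters 0 and 8, so the clusters still differed by group. How many of all genes were called outside cluster 1 is not given here. Whether the differences inside and outside cluster 1 differ was not tested. In cluster 9, which held 8.90% to 21.8% of CD8 T cells in every mouse, Klrd1 was 1.87 and 2.12 in NO_AG, 7.64 and 7.59 in the AG mice, and 9.10 and 8.78 in AG_CPI. Klrc1 in cluster 9 was 0.513 and 0.910, 5.32 and 3.11, and 5.71 and 2.37.

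Natural killer markers moved with these receptors. The summed level of 12 NK/ILC1 genes in CD8 T cells was 11.0 and 14.1 in NO_AG, 34.2 and 30.7 in the AG mice, and 106 and 98.2 in AG_CPI, a list that includes the granzyme and perforin genes of killer T cells. Ncr1, a defining natural killer gene, was at 0 in CD8 T cells of all NO_AG and AG mice and above 0 in both AG_CPI mice. Cells with Ncr1 were few in the whole libraries, 24 and 12 in NO_AG, 17 and 14 in the AG mice, and 8 and 9 in AG_CPI. Summed monocyte/macrophage markers moved with antigen too, at 1.03 and 1.17 in NO_AG, 2.64 and 5.94 in the AG mice, and 5.37 and 3.79 in AG_CPI, with 2 to 8 of 14 at 0. Summed keratinocyte markers were 6.18 and 6.89 in NO_AG, 7.40 and 8.35 in the AG mice, and 3.94 and 4.70 in AG_CPI, with 0 to 3 of 21 at 0 and no overlap. Dendritic epidermal T markers overlapped between the groups (36.0 to 51.9). The part of other cells in the receptor values was not tested.

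Per the labels the mice carried P14 cells, whose receptor uses the beta segment Trbv13-3. Of CD8 T cells, 1.58% and 3.12% held a Trbv13-3 UMI in NO_AG, 48.5% and 59.8% in the AG mice, and 58.2% and 67.4% in AG_CPI. Within the 4 antigen mice, CD8 T cells with a Trbv13-3 UMI (460 to 818 per mouse) were compared with those holding another beta segment and no Trbv13-3 UMI (128 to 365 per mouse), with the mouse as a block. Klrk1 was higher in the Trbv13-3 cells of 4 of 4 mice: 4.13 against 1.37 in AG 1, 2.53 against 1.54 in AG 2, 4.83 against 2.98 in AG_CPI 1 and 5.67 against 3.09 in AG_CPI 2. The difference was 0.94 (SE 0.15, limma adjusted p = 0.0324), 1 of 12 genes called higher, 0.165% of those tested (0.344% in either direction). It lost its call when any 1 of the 4 mice was left out (0.75 to 1.04, adjusted p = 0.0535 to 0.1003) and without the mouse block (adjusted p = 0.416).

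Klrc1 was higher in Trbv13-3 cells in 4 of 4 mice, by far in AG 1 (7.56 against 1.06) and AG 2 (3.87 against 1.28) and narrowly in AG_CPI 1 (7.07 against 6.99) and AG_CPI 2 (2.83 against 2.03), and did not pass (1.19, adjusted p = 0.433). Klrd1 was higher in 3 of 4 mice (14.4 against 4.42, 12.4 against 6.61, 15 against 16.3 and 14 against 10.4), also without passing (0.73, adjusted p = 0.472). H2-Q7 was lower in Trbv13-3 cells in 4 of 4 mice (-0.36, adjusted p = 0.387).

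**Figure D4:**
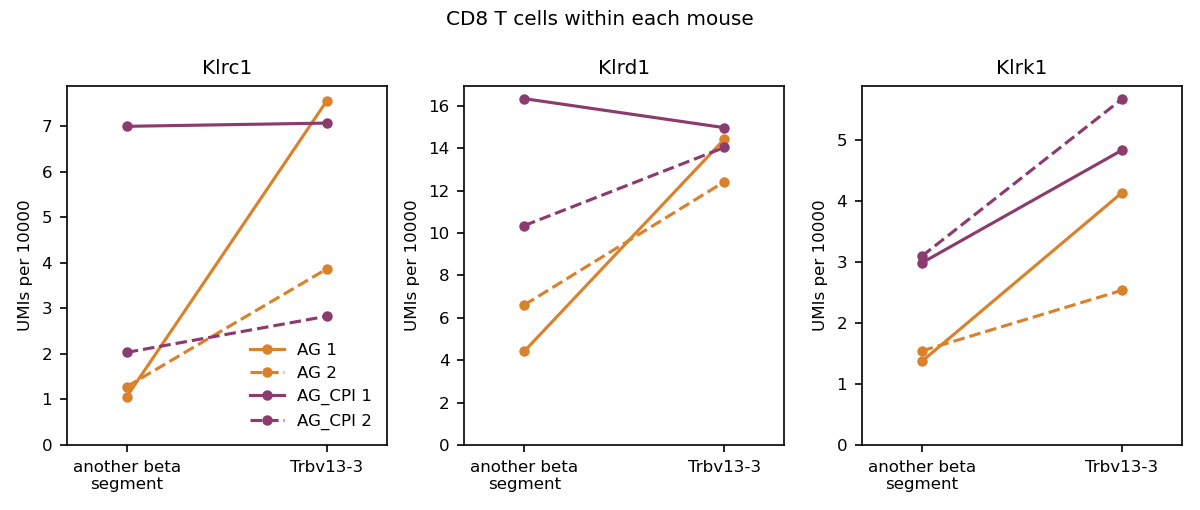
Levels of Klrc1, Klrd1 and Klrk1 in UMIs per 10000 in CD8 T cells with another beta segment and with Trbv13-3, with 1 line per antigen mouse (solid for replicate 1, dashed for replicate 2). All 4 Klrk1 lines rise toward Trbv13-3, while the Klrc1 and Klrd1 lines are steep in the AG mice and flat or nearly flat in AG_CPI 1.

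In the cells with another beta segment the groups were compared once more, an alternative added after seeing the data. Klrc1 was 0.322 and 0.419 in NO_AG, 1.06 and 1.28 in the AG mice, and 6.99 and 2.03 in AG_CPI. AG against NO_AG gave 1.5 and was not called (adjusted p = 0.0925), whereas AG_CPI against AG gave 1.60 and was (adjusted p = 0.0158). Without AG_CPI 1, whose level was the highest, the latter was 0.73 and was not called (adjusted p = 0.831). Klrd1 in these cells was 2.63 and 3, 4.42 and 6.61, and 16.3 and 10.4, with AG_CPI above AG by 1.23 (adjusted p = 0.0022), and by 0.90 without AG_CPI 1 (adjusted p = 0.272). Klrk1 was higher in AG_CPI than in AG by 1.00 (adjusted p = 0.0103), with 1.01 without AG_CPI 1 (adjusted p = 0.173) and 0.97 without AG_CPI 2 (adjusted p = 0.112), and differed by -0.22 between AG and NO_AG. None of these differences of AG_CPI from AG was thus called without AG_CPI 1, the library that stood apart. How many of all genes were called in these cells is not given here. Without AG_CPI 2, the differences of Klrc1 and Klrd1 were 2.47 and 1.56.

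Klrc1 and Klrd1, whose products pair on the cell surface, were found together in single cells. Both had a UMI in 5.51% and 7.27% of CD8 T cells in NO_AG, 48% and 47.3% in the AG mice, and 64.8% and 47.2% in AG_CPI. Klrd1 without Klrc1 took 30.7% and 34.3%, 25.1% and 30%, and 22.4% and 41.1%, and Klrc1 without Klrd1 took 2.36% and 2.34%, 3.89% and 4.81%, and 7.42% and 3.71%. Cells with none of the 3 receptors made up 48.03% and 47.5% in NO_AG, 20.4% and 15.5% in the AG mice, and 4.03% and 5.11% in AG_CPI, with no overlap. All 3 were found in 3.15% and 5.20%, 35.4% and 25.7%, and 44.3% and 36.5%.

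**Figure D5:**
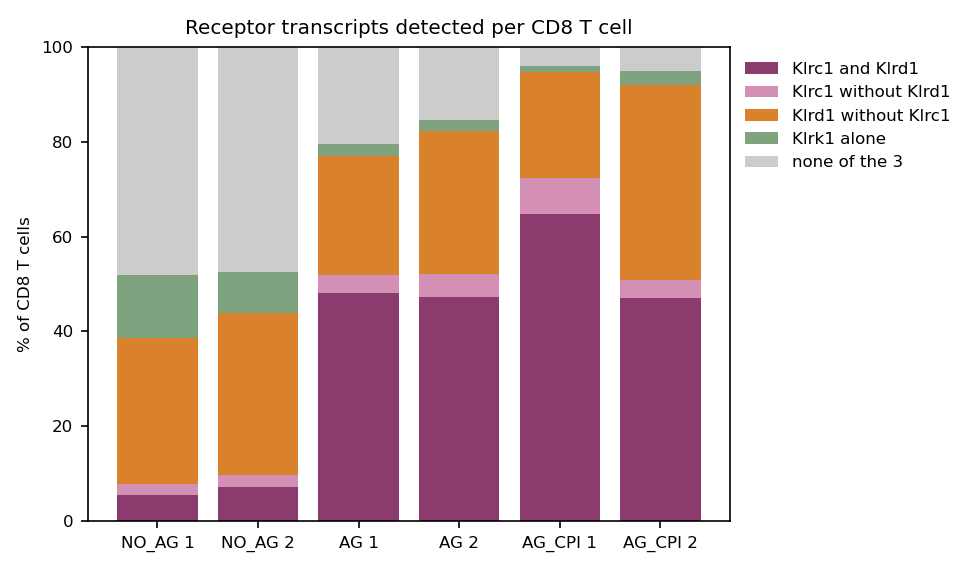
Percent of CD8 T cells of each mouse by receptor UMIs, stacked as Klrc1 and Klrd1, Klrc1 without Klrd1, Klrd1 without Klrc1, Klrk1 alone, and none. The segment with none is largest in the NO_AG mice (48.03% and 47.5%) and smallest in the AG_CPI mice (4.03% and 5.11%).

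Among CD8 T cells with a Klrc1 UMI, Klrd1 was detected in 92.5% in AG 1 (Wilson 89.9% to 94.5%) and 90.8% in AG 2 (87.5% to 93.2%), against 52.1% (47.6% to 56.6%) and 62.8% (57.7% to 67.6%) of cells without one. In AG_CPI 1 and 2 the shares were 89.7% against 80.6% and 92.7% against 83.7%. In NO_AG they were 70.0% against 33.3% and 75.7% against 37.9%, resting on 10 and 37 cells with Klrc1. Cells with Klrc1 were deeper, at a median of 3355 against 2427.5 UMIs in AG 1. After thinning, the shares were 77.2% against 47.8% in AG 1, 79.0% against 55.6% in AG 2, and 78.5% against 72.6% and 78.5% against 71.9% in AG_CPI. Klrk1 too was found more often with Klrc1 than without it in the antigen mice, at 70.8% against 23%, 52.6% against 29.9%, 66.7% against 48.1% and 75.5% against 62.4%. Cells are not replicates, so these shares carry no test.

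Dendritic epidermal T-like cells carried Klrd1 at 9.86 and 9.19 in NO_AG and 10.1 and 14.6 in AG, in 84.4% to 87.4% of cells. The difference of 0.46 (-0.05 to 0.97) was not called (adjusted p = 0.616), and was 0.75 without AG 1. Klrk1 in these cells was 4.15 and 5.01 in NO_AG and 3.22 and 3.36 in AG, the reverse direction to CD8 T cells, and was not called (-0.35, adjusted p = 0.63). Both AG mice lay below both NO_AG mice for 30.8% of genes in this class. Klrc1 was low and overlapped, at 0.435 and 0.514 against 0.396 and 0.810, with a difference of 0.79 without AG 1 and -0.14 without AG 2. The difference between the classes was 2.79 for Klrc1 (SE 0.49, adjusted p = 0.325), 1.52 for Klrd1 (adjusted p = 0.534) and 1.00 for Klrk1 (SE 0.31, adjusted p = 0.542), and none passed, with 0.0309% of 6470 genes called. The NK/ILC1 list summed to 17.4 to 21.5 in 4 mice here and to 89.3 in AG mouse 2.

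In conventional CD4 T cells Klrd1 was 0.169 and 0.210 in NO_AG, 1.07 and 3 in the AG mice, and 0.754 and 1.54 in AG_CPI, with a difference of 2.78 for AG against NO_AG (SE 0.57, adjusted p = 0.145). Markers of other lymphocytes moved with it: the NK/ILC1 list summed to 2.91 and 3.55 in NO_AG, 5.50 and 5.61 in the AG mice, and 6.47 and 7.14 in AG_CPI (2 to 9 of 12 at 0), and the dendritic epidermal T list to 9.88 and 13.2, 17.8 and 21.4, and 18.5 and 14.6 (1 to 4 of 7 at 0). Their part in the result was not tested. Klrc1 there rested on 1 and 0 UMIs in NO_AG and 30 and 43 in AG. Klrk1 rested on 0 to 20 UMIs per mouse (1.12 and 0.243, 0.783 and 0.413, and 0 and 0.0438). Regulatory T cells had no Klrk1 UMI in any mouse with at least 10 cells and no more than 0.233 of Klrc1 or 0.0952 of Klrd1. ILC2-like cells had Klrk1 at 0.437 and 0.830 in NO_AG and 0.521 and 0.508 in the AG mice, and Klrd1 at no more than 0.165. Plasmacytoid dendritic-like cells had Klrd1 at 4.46 in AG 2 and 9.48 and 4.34 in AG_CPI.

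Of the signalling partners in CD8 T cells, Hcst, the adaptor through which NKG2D engages phosphoinositide 3-kinase, was 10.7 and 10.9, 12.3 and 8.91, and 14.3 and 14.8, and was not called. Tyrobp, the other adaptor, fell: 0.768 and 0.713 in NO_AG, 0.143 and 0.151 in the AG mice, and 0.1 and 0.109 in AG_CPI (-1.68, adjusted p = 0.000569, and -1.98, adjusted p = 0.00011, the latter -1.94 without AG_CPI 1). The NO_AG level rested on few cells, 31 UMIs in 8 of 127 cells and 92 UMIs in 25 of 385. Outside cluster 1 the groups overlapped, at 0.113 and 0.503 in NO_AG and 0.103 and 0.152 in AG, and neither difference from NO_AG was called (-0.53 for AG, adjusted p = 0.52, and -0.71 for AG_CPI, adjusted p = 0.385). Within cluster 1 they were -1.75 and -1.79, neither called (adjusted p = 0.9999 and 0.162). In cells with another beta segment Tyrobp was 0.402 and 0.578 in NO_AG and 0.291 and 0.0722 in AG, where the AG difference was -1.11 and not called (adjusted p = 0.494) and that of AG_CPI -1.50 and called (adjusted p = 0.045). It was the 1 gene called of 8 tested on the list of adaptors and signalling genes in each of those comparisons, where 0.86% and 1.39% of all genes were called lower. Of 3 phosphatase genes through which NKG2A signals, none was called. Klrc2, which encodes the activating NKG2C chain and shares sequence with Klrc1, was 0.0699 and 0.0905, 0.0894 and 0.140, and 0.412 and 0.323, and rose in AG_CPI against NO_AG (1.41, adjusted p = 0.00355), a call lost without AG_CPI 1 (1.27, adjusted p = 0.0934). Klrb1f, another lectin-like receptor gene of the complex, fell in both (-1.51, adjusted p = 0.00351, and -1.68, adjusted p = 0.00103, the latter -1.68 without AG_CPI 1). For AG_CPI against NO_AG, Klrc2 was called outside cluster 1 (1.74, adjusted p = 0.0373) and not with another beta segment (0.98). Klrb1f was called with another beta segment (-1.55, adjusted p = 0.0345) and not within cluster 1 (-1.14). Klrc2 and Klrb1f were the 2 of 22 other genes of the complex that could be tested, 7 having a column.

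Across 54 profiles of 1 mouse and 1 class, which share libraries, the genes most like each member among 12571 were found by Pearson's r, as a description. H2-Q7 was closest to H2-K1 (0.932), H2-Q6 (0.898) and H2-T22 (0.868), and H2-T23 to Tapbp, which encodes tapasin (0.706), H2-Q6 (0.700) and Psme1 (0.688). The ligand genes were less like each other (0.636). Klrc1 was closest to Trbv13-3 (0.825), the granzyme gene Gzmk (0.810) and Klrd1 (0.808). Klrd1 was closest to Klrk1 (0.834), Klrc1 and Mctp2 (0.776), and Klrk1 to Atp8b4 (0.838), Klrd1 and the chemokine receptor gene Cx3cr1 (0.823). Between a ligand and a receptor gene r ran from 0.199 to 0.448.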

How the data were processed

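Single-cell RNA was measured in 6 mouse skin libraries. Per the submitters' processing notes, Cell Ranger 3.1 and the build mm10 were used, with no further steps given. The values deposited by the authors are log10 of 1 plus a gene's UMIs per 10000 UMIs of the cell. No header states this unit: under log10, 100% of values fell on whole UMIs (within 0.05 UMI), against 66.7% to 69.8% under the natural log or log2. Cells had 1501 to 14995 UMIs, and each library 5650384 to 23845530.

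Cells needed 200 genes and at most 20% mitochondrial UMIs. Of 21178 cells, 51 failed and 663 Scrublet doublets (1.38% to 3.97% per library, scanpy 1.11.5) were removed. Clustering used 2000 variable genes without the members and listed genes, 30 components, 15 neighbours and Leiden resolution 1. Of 61 clusters, 50 were named from marker lists, a name needing 3 detected markers and a lead of 0.05, and 1271 cells stayed unnamed. Conventional CD4 T cells had a Cd4 UMI and no Cd8a, Cd8b1 or Foxp3 UMI, and regulatory T cells had Cd4 and Foxp3. Libraries shared 0.288% to 0.856% of the smaller library's barcodes.

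Means per mouse were scaled by TMM, logged with a pseudocount of 0.1 and tested with limma 3.58.1 (R 4.3.3), all groups in 1 fit. Genes needed 10 UMIs and a mean of 0.1 in 2 libraries. Raw counts had been allowed for, but the unit is normalized, so no count model was used. Replicate numbers did not pair mice over all classes: same-numbered mice correlated at -0.233 to 0.00860 in CD8 T cells and 0.189 to 0.215 in keratinocyte-like cells. The labels call the mice biological replicates. All 5 members are described; of the lists, up to 3 called genes per list, direction and comparison with the smallest p, plus preset partners, are named. Members and lists were chosen with earlier results of these data known. Simulated data with known changes were used to test the fit.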

Additional observations from a re-analysis of the deposited data

Results flagged for a closer look

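The direction of Klrk1 differed between lymphocyte classes in 3 comparisons, with both mice of a group on the same side. For AG against NO_AG the log2 difference was 0.65 in CD8 T cells and -0.35 in dendritic epidermal T-like cells, and the test of the difference between the classes gave 1.00 (SE 0.31, limma adjusted p = 0.542). For AG_CPI against AG it was 0.84 in CD8 T cells and -2.56 in conventional CD4 T cells (difference 3.4, adjusted p = 0.671). For AG_CPI against NO_AG it was 1.49 in CD8 T cells and -2.46 in conventional CD4 T cells (difference 3.95, adjusted p = 0.433). Without AG_CPI 1 the class values were 0.92 and -2.28 for AG_CPI against AG, and 1.58 and -2.18 for AG_CPI against NO_AG. None of the 3 tests of the difference passed. The conventional CD4 T values rest on 0 and 1 Klrk1 UMIs in the AG_CPI mice, over 21 and 24 cells, so their size depends on the pseudocount and is no bound.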

How the results depend on the processing

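Of 541 values under alternatives other than leaving out a mouse, 506 kept direction and side of the threshold, 11 lost a call, 9 gained one and 15 reversed; of 250 values without 1 mouse, the numbers were 197, 15, 17 and 21. The cause was not tested in any case below. H2-Q7 in fibroblast-like cells rests on 11 UMIs in both NO_AG mice together, and the receptors in conventional CD4 T cells on as few as 0 UMIs in a mouse; few cells and low depth per cell were not told apart. The alternatives on cluster 1, on beta segments and on shared keratinocyte clusters were chosen after seeing the data. TMM scaling moved log2 differences by 0.11 in CD8 T and dendritic epidermal T-like cells (AG against NO_AG) and by -0.18 and -0.12 in conventional CD4 T cells (AG_CPI against AG and NO_AG) relative to the deposited scaling.

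With cells thinned, H2-Q7 was 4.06 in fibroblast-like cells (adjusted p = 0.402) and 2.89 in dendritic/Langerhans-like cells (0.145), both no longer called, and reversals were H2-Q7 in CD8 T cells for AG_CPI against NO_AG (-0.0627) and in monocyte/macrophage-like cells (0.14), H2-T23 in keratinocyte-like cells for AG_CPI against AG (0.14, and 0.0187 at Leiden resolution 0.5) and in monocyte/macrophage-like cells (-0.13), and Klrc1 in dendritic epidermal T-like cells (-0.0368). With no filter on low values, H2-Q7 in dendritic/Langerhans-like cells (3.42) and Klrc1 in CD8 T cells for AG against NO_AG (3.11) lost their calls. Deposited scaling gave H2-Q7 -0.0739 in CD8 T cells for AG_CPI against NO_AG and 0.12 in conventional CD4 T cells for AG_CPI against AG. Stricter cell filters gave -0.0051 for the former and -0.0444 for Klrk1 in conventional CD4 T cells (AG against NO_AG).

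In cluster 1 alone, AG against NO_AG was 1.59 for Klrc1, 0.56 for Klrd1 and -0.26 for Klrk1, and AG_CPI against NO_AG 2.07, 0.94 and 0.18, none called. Without cluster 1, Klrk1 was 1.10 for AG against NO_AG, Klrc1 -0.20 for AG_CPI against AG, and H2-Q7 -0.13 for AG and -0.17 for AG_CPI, each against NO_AG. With another beta segment, AG against NO_AG was 1.5 for Klrc1 and -0.22 for Klrk1, and AG_CPI against AG 1.60, 1.23 and 1.00 for Klrc1, Klrd1 and Klrk1 (0.73, 0.90 and 1.01 without AG_CPI 1, none called). Without cells holding a Trdc UMI, Klrk1 for AG_CPI against AG was 0.90 (adjusted p = 0.045). Klrk1 in Trbv13-3 cells without the mouse block was 0.94 (0.416), and 0.75 to 1.04 without 1 mouse. Over keratinocyte clusters shared by all mice H2-Q7 was 1.16 (0.00956).

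Among the 3 classes with every group, same-numbered mice correlated above 0.1 in every pair in keratinocyte-like cells alone; dendritic epidermal T-like cells had 1 pair of groups (-0.0749). With the replicate number as a block, H2-Q7 was called in keratinocyte-like (1.09, adjusted p = 0.047) and dendritic epidermal T-like cells (1.86, 0.0099) and Klrd1 in conventional CD4 T cells (2.78, 0.0246). The block changed no other call of a member.

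Leaving out 1 mouse gave these ranges for results that reversed or changed call. For AG against NO_AG they were H2-Q7 in CD8 T cells -0.0476 to 0.30; H2-T23 in dendritic/Langerhans-like cells -0.25 to 1.47 and in melanocyte-like cells -0.34 to 0.11; Klrc1 in dendritic epidermal T-like cells -0.14 to 0.79; Klrk1 in CD8 T cells 0.49 to 0.81, in ILC2-like cells -0.62 to 0.19 and in conventional CD4 T cells -0.84 to 1.04. For AG_CPI against AG in CD8 T cells they were H2-Q7 -0.26 to 0.0074, H2-T23 -0.0701 to 0.63, Klrc1 -0.50 to 0.77 and Klrk1 0.68 to 1.00. For the same comparison, H2-T23 in keratinocyte-like cells ran from -0.38 to 0.28, H2-Q7 in conventional CD4 T cells from -0.15 to 0.05, and H2-Q7 and H2-T23 in monocyte/macrophage-like cells from -0.19 to 0.0150 and -0.36 to 0.41. H2-Q7 in CD8 T cells for AG_CPI against NO_AG ran from -0.17 to 0.18. Calls were gained with no change of direction by H2-T23 in CD8 T cells (0.48 to 1.18) and Klrc1 in conventional CD4 T cells (1.34 to 2.97) for AG_CPI against NO_AG, and for AG against NO_AG by H2-Q7 and H2-T23 in dendritic epidermal T-like (1.39 to 2.33 and 0.79 to 1.64) and ILC2-like cells (0.63 to 1.17 and 0.25 to 1.08), H2-Q7 in melanocyte-like cells (1.37 to 1.86) and Klrd1 in dendritic epidermal T-like cells (0.17 to 0.75). In cells with another beta segment, AG against NO_AG ran from 1.37 to 1.63 for Klrc1 and 0.73 to 1.26 for Klrd1, AG_CPI against AG from 0.73 to 2.47, 0.90 to 1.56 and 0.93 to 1.05 for Klrc1, Klrd1 and Klrk1, and AG_CPI against NO_AG from 0.75 to 0.79 for Klrk1.

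The number of genes called moved more. For AG against NO_AG in CD8 T cells, 221 were called, 89 to 424 without 1 mouse and 0 to 288 otherwise, for AG_CPI against NO_AG 286 (98 to 500, and 13 to 484) and for AG_CPI against AG 8 (1 to 34, and 0 to 101). In keratinocyte-like cells the ranges for AG against NO_AG were 8 to 47 and 1 to 64, in fibroblast-like cells 13 to 432 and 3 to 47, and in dendritic/Langerhans-like cells 26 to 1480 and 0 to 420. Where a group is left with 1 mouse, it is assumed to vary as the other groups do. In dendritic epidermal T-like, ILC2-like and melanocyte-like cells no gene was called with all mice. In some fits without 1 mouse many genes were called there beside the members, so calls gained that way do not set the members apart.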
